A study of Mus musculus with 16 samples.

Results

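Wild-type mouse embryonic stem (ES) cells of the CCE line in which FGF receptor kinases had been blocked were compared directly with the same cells in which sulfation had been blocked. The members are the 3 cultures given 5 µM SU5402 for 24 h and the 3 cultures given 20 mM sodium chlorate for 24 h, 6 of the 12 cultures and 8 of the 16 arrays in the series. They were chosen by the treatment in their labels, and culture 3 of each group, hybridised on 2 arrays, counts once. The remaining cultures are 3 of untreated wild-type CCE cells and 3 of untreated Ndst1/2-/- ES cells, which carry null alleles of Ndst1 and Ndst2, which encode N-deacetylase/N-sulfotransferases of heparan sulfate. All were grown on gelatin, in medium with serum and leukemia inhibitory factor (LIF), and all RNA was hybridised to Illumina bead arrays. The sources used here do not give whether the untreated cultures received a solvent or extra salt, or how many clones the Ndst1/2-/- line represents.

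FGF signalling in ES cells runs from secreted FGF ligands through receptor tyrosine kinases to the kinase ERK, and heparan sulfate chains on the cell surface are required for ligand and receptor to pair stably. SU5402 occupies the ATP pocket of FGF receptors and also inhibits VEGF receptors, and it leaves heparan sulfate itself in place. Chlorate competes with sulfate in the synthesis of PAPS, the donor used by every sulfotransferase, so it lowers sulfation of heparan sulfate, of other glycosaminoglycans and of tyrosines alike, and other factors that bind heparan sulfate, such as BMP, Wnt and Hedgehog proteins, depend on the same chains. ERK activity in ES cells is read from a small group of rapid targets, the ETS factors Etv4 and Etv5, the phosphatases Dusp4 and Dusp6, and the Sprouty and Spred inhibitors. ES cells in this medium are known to contain a rare fraction that expresses genes of the 2-cell embryo, among them Zscan4.

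The arrays detected 12022 to 12821 of 25697 probes each, and 13377 probes for 9107 genes were tested. Values below are log2 intensity after background correction and quantile normalization, differences are log2 fold changes with the standard error (SE) from limma, and a positive difference is a higher level with SU5402. A gene was called at a Benjamini-Hochberg adjusted p under 0.05 over all tested probes. All 8 ES cell markers (Pou5f1, Nanog, Sox2, Zfp42, Esrrb, Utf1, Dppa5a, Tdgf1) were detected on all 8 arrays of both treatments, and Utf1 was the 1 called between the treatments. Of 8 fibroblast markers 6 were detected on none of the 8 arrays, as were 7 of 9 endothelial and blood markers and 5 of 8 markers of differentiated lineages. The log2 of the summed intensity of the fibroblast markers spanned 6.56 to 6.74 with chlorate and 6.4 to 6.8 with SU5402. That of the blood and endothelial markers spanned 8.79 to 8.92 and 8.92 to 8.98, and that of the differentiated lineages 6.76 to 7.1 and 6.91 to 7.1. No probe carried the symbol Ndst1 or Ndst2, so the knockout could not be checked at its own genes. Probe values differed by a median of 0.0973 to 0.106 (log2) between both arrays of culture 3 and by 0.0948 to 0.117 between separate cultures, so p-values rest largely on spread between arrays. Fewer cells with a transcript and less of it per cell cannot be told apart in these bulk samples.

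The treatments differed from each other at far fewer probes than either differed from untreated cells. SU5402 cultures were higher than chlorate cultures at 139 probes (1.04%) and lower at 201 (1.5%), 340 probes in all (2.54%), which stand for 126 and 172 genes with a symbol. Against untreated cells, 28.4% of probes were called with chlorate and 23.5% with SU5402 in the same fit, and these comparisons share their untreated cultures. The median size of the 340 differences was 0.37 on the log2 scale, or 1.29-fold. Of the called probes 12 were at least 1.5-fold higher and 22 at least 1.5-fold lower, and 2 and 3 passed 2-fold. The 3 cultures a side did not overlap at any of the 340 probes, against 22.1% of all tested probes that did not overlap. Calling a probe with 3 cultures a side favours such separation, so it is no further support. Over all tested probes the median difference was 0.00. At an unadjusted p under 0.05 limma counted 2202 probes.

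**Figure D1:**
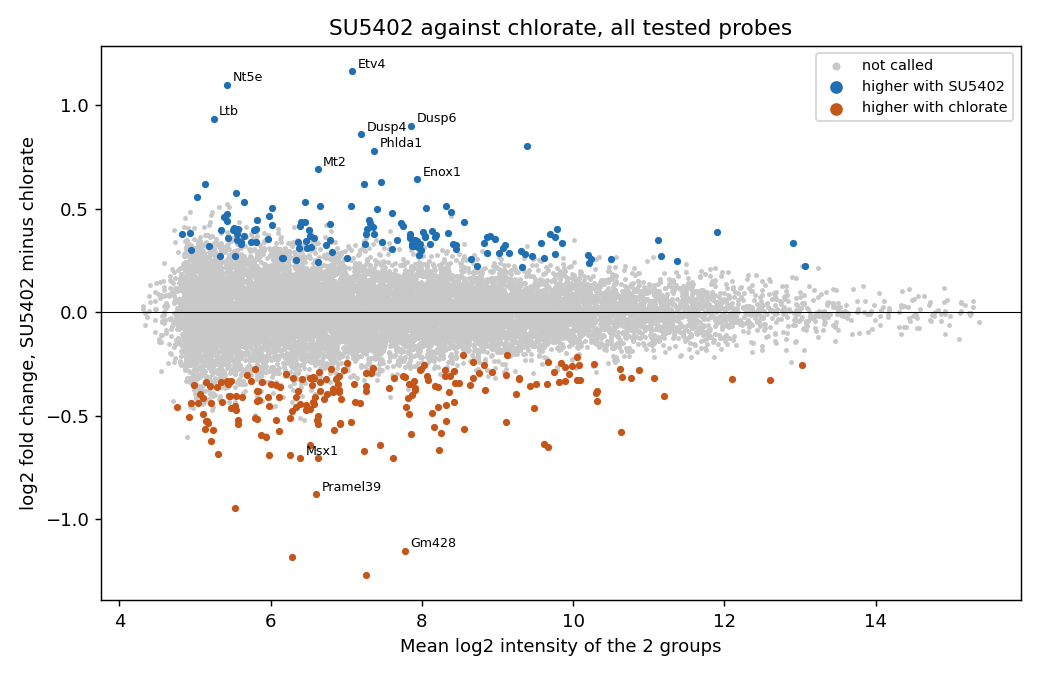
Difference between SU5402 and chlorate for every tested probe (vertical axis, log2 fold change) against the mean log2 intensity of both groups (horizontal axis). Blue points are the 139 probes higher with SU5402, orange points the 201 higher with chlorate, and grey points were not called. Etv4 lies highest, and of the lowest points only Gm428 carries a symbol at a difference past -1.

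These counts fell to a similar level whichever chlorate or SU5402 culture was left out, and each such fit also has fewer cultures. Without a chlorate culture the higher and lower counts were 72 and 88 (replicate 1), 67 and 97 (replicate 2) and 80 and 123 (replicate 3). Without an SU5402 culture they were 69 and 110 (replicate 1), 64 and 95 (replicate 2) and 87 and 122 (replicate 3). Mean intensity set apart 2 sets of arrays that are balanced over the groups: replicate 1 and the first array of culture 3 (412 to 454.1), and replicate 2 and the second array of culture 3 (369.3 to 399.8). Within the first set 5 probes were higher and 16 lower, and within the second 3 and 3, with 2 arrays a group in each. The 30 genes with the largest differences had the same direction in both sets, 11 of them called in the first and 4 in the second. They were chosen from these same arrays for cultures that do not overlap, so a shared direction was expected and is no separate support.

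Several ERK targets were higher with SU5402 than with chlorate, among them Etv4, Dusp6 and Dusp4, which were below the untreated level with each treatment. Among the 19 feedback regulators and targets of FGF-ERK signalling that were tested, 7 were higher with SU5402 than with chlorate and 0 were lower, against 1.13% and 1.73% of all 9107 genes represented by their brightest probe. The median of the list was 0.27, against 0.00 over all genes. This and the other lists were chosen with earlier results of these data known. Their 512 tested genes together were called at 8.59%, against 2.87% of all genes. A list share above that of all genes is therefore no independent support. The shares of 1.13% and 1.73% are the background for every list count below. Against untreated cells 14 of the 19 were lower and 2 higher with chlorate (14.2% of all probes were called in each direction). With SU5402 11 were lower and 0 higher (11.6% and 11.9% of probes).

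Etv4, an ETS transcription factor of the PEA3 group, had the largest increase. Its level was 9.82, 10.03 and 10.03 in the untreated cultures, 6.62, 6.43 and 6.44 with chlorate, and 7.70, 7.62 and 7.66 with SU5402. No group overlapped another, and the chlorate cultures were the lowest. The difference between the treatments was 1.17 ± 0.08 (limma, adjusted p = 2.46e-05, 3 cultures a side), set beside -3.47 for chlorate and -2.30 for SU5402 against untreated cells. Ndst1/2-/- cells lay between them at -2.67 against untreated cells. Within the first and the second array set the difference was 1.16 and 1.20.

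Dusp6, the cytoplasmic phosphatase that inactivates ERK, has 3 tested probes. The brightest read 11.17, 11.03 and 11.17 untreated, 9.06, 8.89 and 9.02 with chlorate and 9.96, 9.68 and 9.74 with SU5402. Every SU5402 culture was above every chlorate culture and below every untreated one. The difference was 0.80 ± 0.08 by this probe (limma, adjusted p = 0.000446) and 0.90 ± 0.07 by a second (adjusted p = 6.24e-05), and the third did not pass (0.39 ± 0.11, adjusted p = 0.0930). Dusp4, a nuclear phosphatase of ERK and related kinases, read 8.86, 8.93 and 8.90 untreated, 6.78, 6.92 and 6.59 with chlorate and 7.57, 7.70 and 7.60 with SU5402, in the same order as Dusp6. Its difference was 0.86 ± 0.08 (limma, adjusted p = 0.000167), and its other probe was also called. Of 15 tested genes of the Dusp family, Dusp11 was the only other called higher, by its dimmer probe (0.32 ± 0.06), while its brightest probe did not pass (0.16 ± 0.07, limma adjusted p = 0.234).

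Phlda1, a growth-factor-induced pleckstrin homology-like protein, read 8.21, 7.95 and 7.92 untreated, 7.13, 6.98 and 6.82 with chlorate and 7.86, 7.74 and 7.68 with SU5402. Chlorate lowered it by the fit (-1.05), and the SU5402 cultures sat just under the untreated ones without passing (-0.27, limma adjusted p = 0.0840). The difference between treatments was 0.78 ± 0.11 (limma, adjusted p = 0.00335). Spred1, a membrane inhibitor of the Ras-ERK step, read 7.66, 7.47 and 7.40 with chlorate and 7.97, 8.01 and 7.84 with SU5402, both below 8.87, 8.81 and 8.85 untreated, and differed by 0.43 ± 0.07 (limma, adjusted p = 0.00997). Etv5, the close relative of Etv4, and Egr1, an immediate early zinc finger factor, differed by 0.28 ± 0.07 and 0.27 ± 0.06 (limma, adjusted p = 0.0406 and 0.0465). Etv5 lost its call without any chlorate or SU5402 culture, without untreated replicate 2 or 3 and without Ndst1/2-/- replicate 3 (limma, adjusted p = 0.0544 to 0.148). Egr1 lost it without any culture but untreated replicate 1 (0.0544 to 0.144). The list count was 5 in 9 of those 12 fits and otherwise 6 or 7.

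Other ERK targets did not pass. Spry4, a Sprouty feedback inhibitor, read 5.84, 6.13 and 5.72 with chlorate and 6.57, 6.19 and 6.14 with SU5402, against 7.76, 7.87 and 8.06 untreated, a difference of 0.40 ± 0.13 (limma, adjusted p = 0.122). Etv1 differed by 0.04 ± 0.15 and Dusp1 by 0.20 ± 0.06 (limma, adjusted p = 0.930 and 0.127). Etv1 was close to background with both treatments, detected on 2 of 4 chlorate and 1 of 4 SU5402 arrays, so a difference could be hidden there. Myc, named after its values were seen, fell by 1.43 on the log2 scale against untreated cells with each treatment, and its difference between them was 0.00 ± 0.09. A p above the threshold does not show that these genes responded alike.

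**Figure D2:**
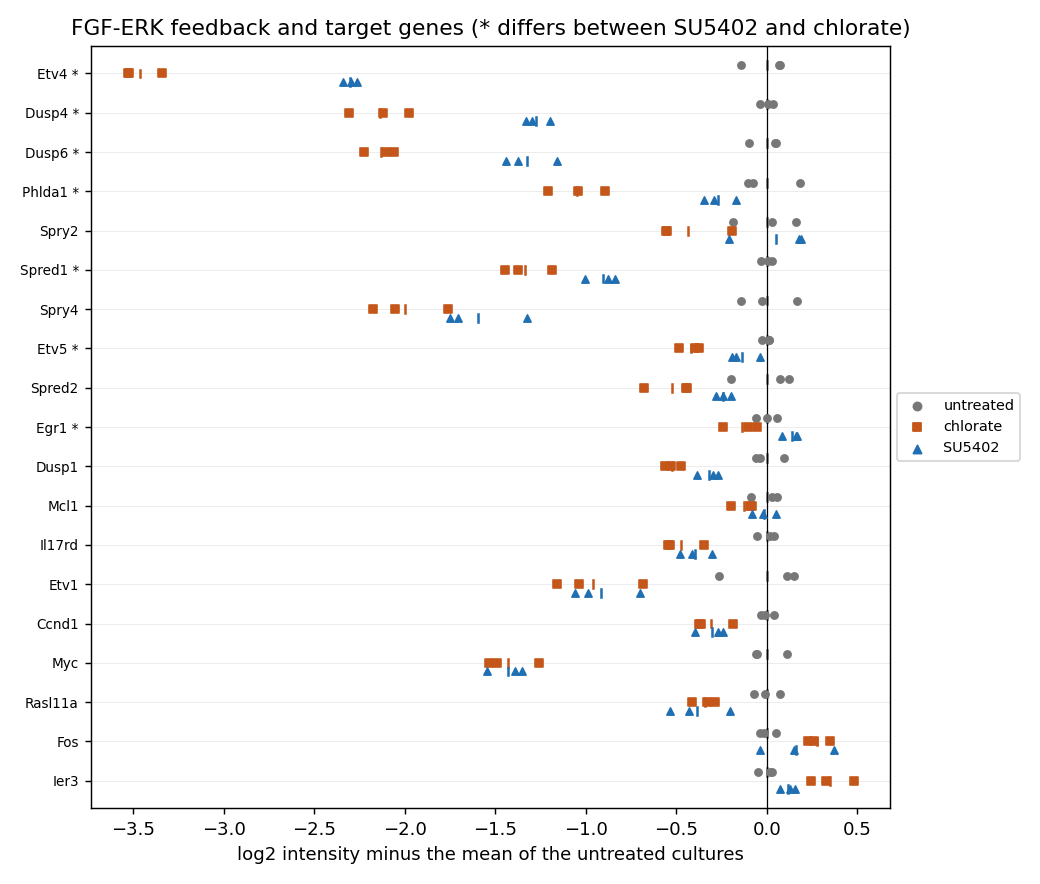
Level of each of the 19 FGF-ERK feedback and target genes in each culture, as log2 intensity minus the mean of the untreated cultures (horizontal axis). Points are cultures, short bars are group means, and a star marks the 7 genes called between SU5402 and chlorate. Etv4, Dusp4, Dusp6, Phlda1 and Spred1 show chlorate cultures farthest to the left, while Myc and Ccnd1 show both treatments together.

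The start of Dusp6 is shown because it is the brightest ERK target that differed and its sequence was in the RefSeq promoter table, which holds no entry for Etv4, Dusp4 or Phlda1. The 250 bases before its start lie at chr10:99262981-99263230 on the plus strand of GRCm38.p6 (RefSeq). No match to the ETS core CCGGAAG, to AP-1 (TGANTCA), to a SMAD1/5 element (GGCGCC) or to a metal-response core (TGCACNC or TGCGCNC) was found on either strand in these letters, so none are in capitals.
Dusp6: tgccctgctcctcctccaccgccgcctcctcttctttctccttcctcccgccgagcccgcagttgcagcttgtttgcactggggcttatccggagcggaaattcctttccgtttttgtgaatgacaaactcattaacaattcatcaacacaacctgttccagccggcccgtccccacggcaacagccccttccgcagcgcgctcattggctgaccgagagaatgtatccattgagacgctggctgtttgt
A match to the ETS core was found in 14.0% of 7399 tested genes with such a sequence, in 9.09% of 99 called higher with SU5402 and in 8.82% of 136 called lower. AP-1 matched 4.35%, 5.05% and 9.56% of the same sets. The share over all 26727 genes of the table was 7.11% for ETS and 6.85% for AP-1.

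Several further growth factor and receptor genes differed in both directions. Vegfc, a ligand of VEGF receptors, read 8.20, 8.13 and 8.20 untreated, 6.93, 6.94 and 6.91 with chlorate and 7.66, 7.43 and 7.55 with SU5402. The chlorate cultures were lowest and the SU5402 cultures intermediate, and the difference was 0.62 ± 0.06 (limma, adjusted p = 0.000446). Of 11 tested receptor tyrosine kinase and ligand genes outside the FGF family 2 were higher with SU5402 and 1 lower (1.13% and 1.73% of all genes). The second was Epha2, an ephrin receptor (0.39 ± 0.08, adjusted p = 0.0225), which lost its call without chlorate replicate 1 (0.0791) or SU5402 replicate 2 (0.0965). The lower one was Vegfa (-0.29 ± 0.06, adjusted p = 0.0288), whose call was lost without any 1 of the 6 treated cultures (0.0538 to 0.0990) and in the mean of its 2 probes (-0.14, adjusted p = 0.513). Of 11 tested FGF ligands and receptors only Fgf10, a secreted ligand, differed. It read 5.56, 5.50 and 5.41 untreated, 6.37, 6.33 and 6.22 with chlorate and 5.91, 5.96 and 5.96 with SU5402 (-0.36 ± 0.07, adjusted p = 0.0153), and it was not called without chlorate replicate 1 or 2 or SU5402 replicate 1 (0.0538 to 0.0611). Its second probe did not pass (-0.25 ± 0.08, adjusted p = 0.131). Fgfr1 (-0.09 ± 0.12), Fgfr2 (-0.24 ± 0.14) and Fgf4 (0.01 ± 0.09), the main FGF of ES cells, did not pass.

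Genes of the machinery that chlorate acts on were measured with few differences. Of 14 tested genes of heparan sulfate synthesis and remodelling, 11 core proteins and 9 chondroitin sulfate genes, 0 were called, and the medians were 0.03, 0.04 and -0.04. Ext1 and Ext2, which polymerise heparan sulfate, differed by 0.18 ± 0.07 and 0.01 ± 0.06, and Extl2 by 0.04 ± 0.06 (limma, adjusted p = 0.202, 0.943 and 0.805). At an unadjusted p the same fit placed 2202 of all probes under 0.05. Of 21 tested genes for sulfate uptake, PAPS supply and other sulfotransferases 0 were higher and 2 lower with SU5402 (1.13% and 1.73% of all genes). Chst1, the sulfotransferase of keratan sulfate, read 6.01, 5.91 and 5.70 untreated, 6.42, 6.48 and 6.29 with chlorate and 5.81, 5.65 and 6.01 with SU5402. The chlorate cultures lay above every untreated culture, the SU5402 cultures overlapped them, and the difference was -0.57 ± 0.10 (limma, adjusted p = 0.0111). Sgsh, a lysosomal enzyme that removes N-sulfate from heparan sulfate, differed by -0.36 ± 0.06 (adjusted p = 0.0110), close to background with 3 of 4 chlorate and 2 of 4 SU5402 arrays detecting it. Without background correction it was -0.16 (limma, adjusted p = 0.0758), and its call was also lost with trend and robust variance (0.0832), with array set as a block (0.0863), with duplicateCorrelation (0.113), with only the 6 compared cultures (0.0671) and in either array set. The PAPS synthase gene Papss1 did not pass (-0.10 ± 0.05).

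Called genes of the 2-cell-like state lay on the opposite side. Of 8 tested, 0 were higher and 5 lower with SU5402 than with chlorate, against 1.73% of all genes, with a median of -0.48. Zscan4c, a transcription factor of 2-cell embryos and of rare ES cells, read 9.75, 9.43 and 9.54 untreated, 9.95, 9.85 and 10.01 with chlorate and 9.29, 9.24 and 9.37 with SU5402. The chlorate cultures were above and the SU5402 cultures below every untreated culture. The difference was -0.64 ± 0.08 (limma, adjusted p = 0.00225), beside 0.36 for chlorate and -0.27 for SU5402 against untreated cells, both called (adjusted p = 0.00485 and 0.0288). Usp17la, a deubiquitinating enzyme gene, read 5.89, 5.55 and 5.67 untreated, 6.30, 6.25 and 6.17 with chlorate and 5.65, 5.54 and 5.71 with SU5402, and differed by -0.60 ± 0.08 (limma, adjusted p = 0.00362). There the SU5402 cultures overlapped the untreated ones and the chlorate cultures lay above them.

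Tcstv3 read 8.57, 8.62 and 8.51 untreated, 8.59, 8.69 and 8.66 with chlorate and 8.16, 8.19 and 8.28 with SU5402. There the SU5402 cultures lay below every untreated culture and the chlorate cultures overlapped them, and the difference was -0.44 ± 0.06 (limma, adjusted p = 0.00446). Pramel6 was detected on 4 of 4 chlorate arrays and on none of the untreated or SU5402 arrays, so it was at least 1.31-fold higher with chlorate (-0.53 ± 0.10, adjusted p = 0.0148). Pramel7, its neighbour on chromosome 2, differed by -0.52 ± 0.12 (adjusted p = 0.0472) and lost its call without any untreated culture, any chlorate culture, SU5402 replicate 1 or 2 or Ndst1/2-/- replicate 1 (0.0534 to 0.148). Tcstv1 (-0.28 ± 0.08), Tdpoz1 (-0.14 ± 0.10) and Eif1a (0.12 ± 0.05), the other listed genes tested, did not pass. Without SU5402 replicate 1 the list count was 3, and without the other cultures it ranged from 4 to 6.

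The family of PRAME-like genes, leucine-rich repeat genes expressed in early embryos and germ cells, was examined after the values had been seen. Of 9 tested members 7 were lower with SU5402 and 0 higher, against 1.73% and 1.13% of all genes, over a range from -0.88 to -0.10. Pramel39 read 6.49, 6.35 and 6.53 untreated, 7.14, 7.10 and 6.88 with chlorate and 6.13, 6.22 and 6.14 with SU5402 (-0.88 ± 0.08, limma adjusted p = 0.000153). As with Zscan4c, the chlorate cultures lay above and the SU5402 cultures below all untreated ones. Pramel37 had 2 tested probes, which gave -0.70 ± 0.08 and -0.69 ± 0.10, both called. Pramel20 (-0.69 ± 0.11) and Pramel31 (-0.60 ± 0.11) were raised by chlorate and near the untreated level with SU5402 (0.05 and 0.15, not called), and Pramel31 lost its call without chlorate replicate 1 (limma, adjusted p = 0.0558). These genes, Zscan4c, Usp17la and the Tcstv genes belong to families of near-identical copies, so a probe may also read its relatives and the assignment to 1 copy is uncertain.

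Gm428, a predicted gene with no role given here, had the largest decrease with a symbol. It read 7.32, 7.41 and 7.46 untreated, 8.33, 8.43 and 8.30 with chlorate and 7.30, 7.04 and 7.25 with SU5402. The chlorate cultures stood alone above the rest, and the difference was -1.15 ± 0.07 (limma, adjusted p = 1.24e-05). A pair of probes without a symbol moved as far, ILMN_2810827 (-1.27 ± 0.10) and ILMN_2951499 (-1.19 ± 0.13). Of the 201 lower probes 22 had no symbol, and of the 139 higher ones 5. AF067061 differed by -0.64 ± 0.06 (adjusted p = 0.000207), Gm5662 by -0.67 ± 0.08 and 2210409E12Rik by -0.67 ± 0.09 (limma, adjusted p = 0.00156 and 0.00370). For Gm5662 1 of its 2 tested probes was called.

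Of 10 tested targets of BMP signalling 0 were higher and 3 lower with SU5402, against 1.13% and 1.73% of all genes. The median of the list was -0.31. Msx1, a homeobox gene, read 5.88, 5.73 and 5.88 untreated, 6.58, 6.91 and 6.73 with chlorate and 5.995, 5.98 and 6.13 with SU5402. The chlorate cultures were far above the rest, and SU5402 was not called against untreated cells (0.20, limma adjusted p = 0.0955). The difference between treatments was -0.71 ± 0.08 (limma, adjusted p = 0.000890) and was -0.44 without background correction. In Ndst1/2-/- cells Msx1 was lower than in untreated wild-type cells (-0.65).

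Id2, an inhibitor of basic helix-loop-helix factors, read 8.41, 8.38 and 8.44 untreated, 9.35, 9.38 and 9.62 with chlorate and 9.04, 8.96 and 9.15 with SU5402. Both treatments raised it, chlorate more, and the difference was -0.40 ± 0.09 (limma, adjusted p = 0.0360), with a second probe also called (-0.57 ± 0.13). Id1 differed by -0.36 ± 0.08 (adjusted p = 0.0403). Both calls lay close to the threshold: Id2 lost its call in 7 of the 12 fits without 1 culture (limma, adjusted p = 0.0514 to 0.135) and Id1 in 8 (0.0513 to 0.142). Some of these fits left out an untreated or Ndst1/2-/- culture, which changes the estimate of spread and not the difference itself. The list count fell to 1 without untreated replicate 3, chlorate replicate 2 or 3, SU5402 replicate 1 or 2 or Ndst1/2-/- replicate 2. With median scaling neither Id1 nor Id2 was called (limma, adjusted p = 0.0649 and 0.0873). Id3 (-0.09 ± 0.07) and Id4 (-0.33 ± 0.12) did not pass, nor did the ligand gene Bmp4 (0.05 ± 0.07), which both treatments lowered (-1.63 and -1.59 against untreated cells).

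The starts of Msx1 and Id2 are shown because these genes lead the BMP group. The 250 bases before the RefSeq start of Msx1 (chr5:37824586-37824835, minus strand, GRCm38.p6) hold none of the 4 motifs. Those of Id2 (chr12:25096093-25096342, minus strand) hold GGCGCC, the SMAD1/5 element, from 231 bases before the start, and the metal-response core from 250 and 36 bases before it, all in capitals. Matches on either strand were counted and none overlap.
Msx1: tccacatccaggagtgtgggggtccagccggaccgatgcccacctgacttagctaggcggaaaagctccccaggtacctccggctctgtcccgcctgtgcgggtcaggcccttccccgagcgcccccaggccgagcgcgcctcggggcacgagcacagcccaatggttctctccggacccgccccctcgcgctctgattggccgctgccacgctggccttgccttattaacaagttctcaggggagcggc
Id2: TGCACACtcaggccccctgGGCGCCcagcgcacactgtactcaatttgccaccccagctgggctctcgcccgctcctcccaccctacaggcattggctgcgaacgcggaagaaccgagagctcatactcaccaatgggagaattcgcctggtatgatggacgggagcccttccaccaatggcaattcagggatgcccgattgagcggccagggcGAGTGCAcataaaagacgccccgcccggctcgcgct
GGCGCC was present in 16.2% of the sequences of tested genes, in 16.2% of those called higher and in 21.3% of those called lower with SU5402, and in 9.61% of all sequences in the table. A match describes letters and is not a measured site.

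Among osmotic stress genes 0 of 7 were higher and 3 lower with SU5402 (median -0.22), against 1.13% and 1.73% of all genes. Aqp3, a water and glycerol channel, read 8.92, 8.71 and 8.87 untreated, 10.66, 10.52 and 10.40 with chlorate and 10.09, 10.08 and 10.12 with SU5402. Both treatments raised it, with the chlorate cultures highest, and the difference was -0.43 ± 0.08 (limma, adjusted p = 0.0126). Sgk1, a kinase that regulates ion transport, was raised by both (0.60 and 0.27 against untreated cells) and differed by -0.33 ± 0.06 (adjusted p = 0.0170). The aldo-keto reductase gene Akr1b8 went the other way against untreated cells (-0.47 with chlorate, -0.90 with SU5402) and differed by -0.43 ± 0.08 (adjusted p = 0.0145). Nfat5, the tonicity-responsive factor, did not pass (-0.03 ± 0.06), nor did the taurine carrier Slc6a6 (-0.22 ± 0.06) or the amino acid carrier Slc38a2 by its brightest probe (-0.21 ± 0.07). A dimmer probe of Slc38a2 was called (-0.25 ± 0.05, adjusted p = 0.0271). The count fell to 1 without chlorate replicate 1 or 2 or SU5402 replicate 2, where Akr1b8 and Sgk1 lost their calls (limma, adjusted p = 0.0534 to 0.0694). Sgk1 was also lost without chlorate replicate 3 (0.0521). With median scaling Aqp3 and Sgk1 were not called (limma, adjusted p = 0.0761 and 0.164).

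**Figure D3:**
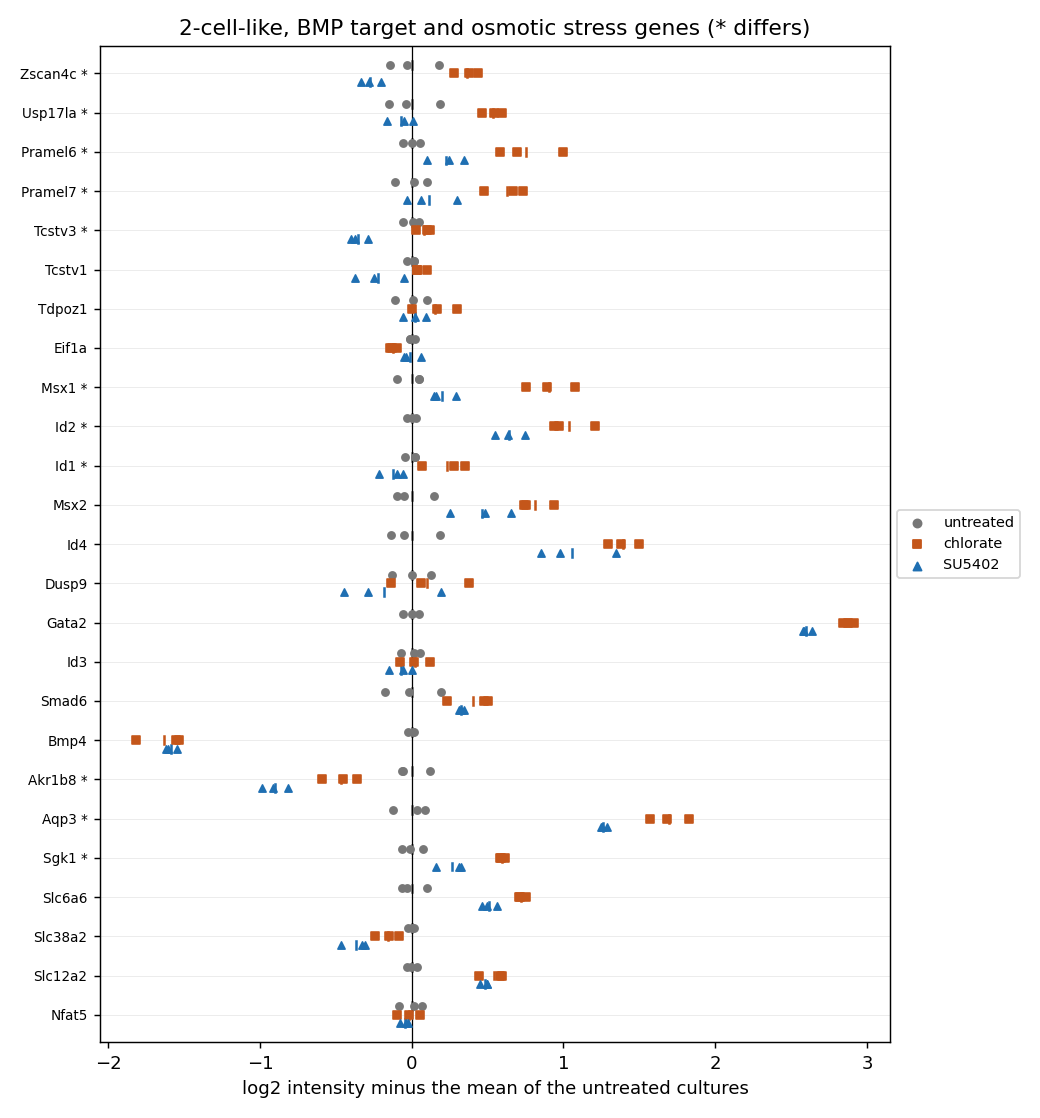
Level of each 2-cell-like, BMP target and osmotic stress gene tested, from top to bottom, in each culture, as log2 intensity minus the mean of the untreated cultures (horizontal axis). Points are cultures, bars are group means, and a star marks the 5, 3 and 3 genes called between treatments. For Zscan4c the chlorate points lie right and the SU5402 points left of the untreated ones, while for Aqp3 and Id2 both lie right.

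Of 10 tested metal-response genes 2 were higher with SU5402 and 0 lower (median 0.09), against 1.13% and 1.73% of all genes. Both were metallothioneins, small proteins that bind zinc and copper. Mt1 read 13.80, 13.68 and 13.75 untreated, 12.71, 12.75 and 12.75 with chlorate and 13.09, 13.01 and 13.10 with SU5402. Chlorate cultures were lowest and SU5402 cultures intermediate, and the difference was 0.33 ± 0.06 (limma, adjusted p = 0.00997). Mt2 differed by 0.69 ± 0.15 (adjusted p = 0.0307), with 7.60, 7.34 and 7.68 untreated, 6.08, 6.46 and 6.28 with chlorate and 6.89, 6.84 and 7.16 with SU5402. Its call was lost without chlorate replicate 1 or 3 or any SU5402 culture (limma, adjusted p = 0.0636 to 0.112). Hmox1, heme oxygenase, read 8.82, 8.83 and 8.68 untreated, 7.999, 8.04 and 8.16 with chlorate and 8.58, 8.55 and 8.61 with SU5402 (0.51 ± 0.06, adjusted p = 0.00187). It and the sulfiredoxin gene Srxn1 (0.31 ± 0.06, adjusted p = 0.0216) were the 2 of 18 oxidative stress genes called (median of the list 0.06). Srxn1 lost its call without chlorate replicate 1 or 2 or SU5402 replicate 1 or 3 (0.0673 to 0.0819), and in the mean of its 3 probes (0.18, adjusted p = 0.0911).

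The starts of both metallothionein genes are shown because the genes are adjacent on chromosome 8 and differed in the same direction. The 250 bases before the start lie at chr8:94178839-94179088 for Mt1 and at chr8:94172368-94172617 for Mt2, both on the plus strand of GRCm38.p6 (RefSeq). Capitals mark the metal-response core TGCACNC or TGCGCNC on either strand, once in Mt1 (from 23 bases before the start) and 3 times in Mt2 (from 223, 128 and 50), and in Mt2 also 1 AP-1 match (TGANTCA, from 79).
Mt1: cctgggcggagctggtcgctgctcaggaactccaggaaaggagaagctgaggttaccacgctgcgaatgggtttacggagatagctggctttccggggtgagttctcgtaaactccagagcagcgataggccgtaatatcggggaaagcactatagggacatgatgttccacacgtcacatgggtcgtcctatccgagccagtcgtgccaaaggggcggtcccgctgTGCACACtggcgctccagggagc
Mt2: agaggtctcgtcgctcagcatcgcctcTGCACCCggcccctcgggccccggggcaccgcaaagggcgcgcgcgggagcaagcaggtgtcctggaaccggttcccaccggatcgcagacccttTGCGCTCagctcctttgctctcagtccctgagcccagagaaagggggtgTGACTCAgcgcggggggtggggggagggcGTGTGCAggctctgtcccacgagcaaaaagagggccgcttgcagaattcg
The metal-response core was present in 30.4% of the sequences of tested genes, in 29.3% of those called higher and in 36.8% of those called lower with SU5402, and in 21.4% of all sequences in the table.

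Of 14 tested naive pluripotency genes 0 were called between the treatments (median -0.07), although 11 were higher and 2 lower than untreated with each treatment. Of all probes, 14.2% were called in each direction against untreated cells with chlorate. With SU5402 11.9% were higher and 11.6% lower, and both comparisons share the untreated cultures. Nanog read 11.88, 11.82 and 11.81 untreated, 12.74, 12.73 and 12.81 with chlorate and 12.66, 12.54 and 12.64 with SU5402. The treated cultures were all above the untreated ones, and the difference between treatments was -0.15 ± 0.06 (limma, adjusted p = 0.247). Klf4 (-0.28 ± 0.08) and Klf2 (-0.09 ± 0.06) did not pass, and neither did Pou5f1 (-0.05 ± 0.08), Sox2 (0.11 ± 0.09) or Dppa4 (0.18 ± 0.06). Of 9 general pluripotency genes Utf1, a chromatin-associated ES cell factor, was called. It read 11.11, 11.04 and 11.11 untreated, 9.43, 9.69 and 9.64 with chlorate and 9.91, 9.98 and 10.07 with SU5402 (0.40 ± 0.07, adjusted p = 0.0148), and was not called without SU5402 replicate 3 (0.0556).

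No gene was called among 11 primed epiblast, 14 primitive endoderm, 14 trophectoderm or 8 neuroectoderm genes, and 1 of 5 mesendoderm genes was. That gene was Gsc, a homeobox gene of the organizer, at 5.25, 5.33 and 5.17 untreated, 6.99, 7.06 and 6.96 with chlorate and 6.62, 6.67 and 6.61 with SU5402 (-0.37 ± 0.06, limma adjusted p = 0.00648). Targets of Wnt (7 tested), Nodal (5) and Hedgehog (5) signalling held 0 calls each, and 1 of 12 LIF-STAT3 genes, the inhibitor Socs3, was lower (-0.25 ± 0.06, adjusted p = 0.0373). Socs3 lost its call in 9 of the 12 fits without 1 culture (limma, adjusted p = 0.0509 to 0.140). Cholesterol synthesis (14), fatty acid synthesis (15), the unfolded protein response (14), respiratory chain subunits (16), p53 targets (12), cell cycle (16), DNA replication (17) and ribosome biogenesis (17) also held 0. A wider endothelial and blood list (8 tested) held 1 higher gene, Robo4 (0.45 ± 0.10, limma adjusted p = 0.029), and 1 lower, Spic. Robo4 lost its call in 4 of the 12 fits without 1 culture (limma, adjusted p = 0.069 to 0.11). Single calls were Cth, higher among 24 integrated stress response genes, Itga3, higher among 18 matrix and adhesion genes, and Glb1, lower among 16 lysosome genes. Cth was lost in 9 such fits (limma, adjusted p = 0.051 to 0.13).

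Imprinted genes held 3 of 12 that were lower with SU5402 and 0 higher, against 1.73% and 1.13% of all genes. Cdkn1c, an inhibitor of cyclin-dependent kinases, read 10.50, 10.62 and 10.59 untreated, 10.85, 10.97 and 10.96 with chlorate and 10.30, 10.33 and 10.41 with SU5402. Chlorate cultures lay above and SU5402 cultures below the untreated ones, and the difference was -0.58 ± 0.06 (limma, adjusted p = 0.000647). The growth factor gene Igf2 (-0.33 ± 0.07, adjusted p = 0.0218) and Peg3 (-0.44 ± 0.10, adjusted p = 0.0385) followed. Igf2 lost its call in 5 of the 12 fits without 1 culture (limma, adjusted p = 0.0531 to 0.0758) and Peg3 in 7 (0.0537 to 0.132), both together without chlorate replicate 1 or 3 or SU5402 replicate 1. The median of the list was -0.01. Among 15 glycolysis and hypoxia genes 1 was higher and 2 were lower, Vegfa being one of the latter. Pdk1, which inhibits pyruvate dehydrogenase, read 9.42, 9.28 and 9.37 untreated, 7.08, 7.16 and 7.18 with chlorate and 7.84, 7.79 and 7.68 with SU5402 (0.63 ± 0.07, adjusted p = 0.000509). The phosphofructokinase gene Pfkl was lower (-0.33 ± 0.06, adjusted p = 0.0155), was lost without chlorate replicate 1 or SU5402 replicate 1 or 3 (0.0532 to 0.0611), and averaged -0.11 over all its probes (adjusted p = 0.434).

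**Figure D4:**
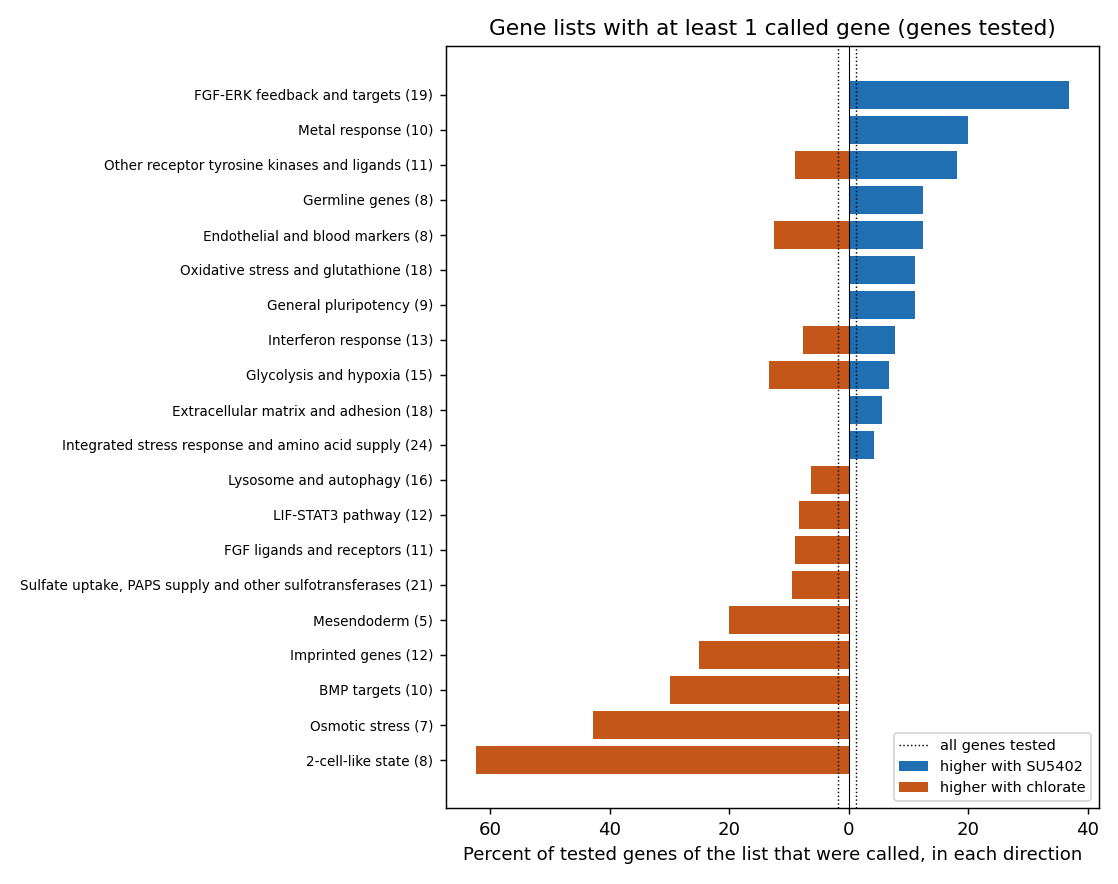
Share of the tested genes of each list that were called between treatments, for the 20 of 44 lists with at least 1 called gene. Bars to the right (blue) are percent higher with SU5402 and bars to the left (orange) percent higher with chlorate, the number of tested genes is in brackets, and dotted lines mark 1.13% and 1.73% over all genes. The FGF-ERK bar reaches farthest right, and the 2-cell-like bar farthest left.

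Several of the largest increases with SU5402 belonged to none of these groups. Nt5e, the ecto-enzyme CD73 that forms adenosine, read 7.11, 7.05 and 7.06 untreated, 4.91, 4.78 and 4.94 with chlorate and 6.0, 5.99 and 5.94 with SU5402. It was detected on 0 of 4 chlorate arrays, which makes it at least 1.93-fold higher with SU5402 (1.10 ± 0.06, limma adjusted p = 5.32e-06), and 1 of its 2 tested probes was called. Ltb, the cytokine lymphotoxin beta, read 5.26, 5.34 and 5.37 untreated, 4.78, 4.66 and 4.89 with chlorate and 5.63, 6.01 and 5.50 with SU5402. It was also undetected on all chlorate arrays, and was at least 1.61-fold higher (0.94 ± 0.12, adjusted p = 0.00173). Here the treatments lay on opposite sides of the untreated cultures.

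Cldn3, a tight junction claudin, was detected on all 4 SU5402 arrays and on no untreated or chlorate array, at least 1.22-fold higher (0.56 ± 0.12, limma adjusted p = 0.0252). It lost its call without any 1 chlorate culture (0.0563 to 0.0858). Enox1, of the ecto-NOX oxidases, was lowered by both treatments (-1.80 and -1.16 against untreated cells) and differed by 0.64 ± 0.08 (limma, adjusted p = 0.00273). Gng2, a G protein gamma subunit, was undetected with chlorate and at least 1.34-fold higher with SU5402, where it matched the untreated level closely (-0.01). Septin10 (0.57 ± 0.11), Armc9 (0.53 ± 0.07) and the docking protein gene Dok2 (0.53 ± 0.11) completed the 15 genes. Septin10 lost its call without SU5402 replicate 1 (limma, adjusted p = 0.0644) and Dok2 without chlorate replicate 1 or 2 or any SU5402 culture (0.0509 to 0.103), and Armc9 averaged 0.16 over its 3 probes (adjusted p = 0.0963).

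Of the remaining large decreases, Ifitm1, an interferon-induced transmembrane protein, read 7.97, 8.22 and 8.18 untreated, 9.94, 10.14 and 9.92 with chlorate and 9.17, 9.37 and 9.50 with SU5402. Both treatments raised it, chlorate more, and the difference was -0.65 ± 0.11 (limma, adjusted p = 0.0101). Another interferon gene, the GTPase gene Gbp2, went the other way (0.33 ± 0.06, adjusted p = 0.0129), with 7.86, 7.79 and 7.78 with chlorate and 8.23, 8.11 and 8.09 with SU5402, so that of 13 interferon response genes 1 was higher and 1 lower. Coch, the extracellular protein cochlin, differed by -0.59 ± 0.11 (adjusted p = 0.0148), and was lost without chlorate replicate 2 (0.0577) or SU5402 replicate 2 (0.0598). Tmem92, a transmembrane protein, differed by -0.64 ± 0.07 (limma, adjusted p = 0.000509). Rgcc, a regulator of the cell cycle, was detected on 4 of 4 chlorate, 3 of 4 SU5402 and no untreated arrays (-0.69 ± 0.12, adjusted p = 0.0118), and was lost without chlorate replicate 2 (0.0515).

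**Figure D5:**
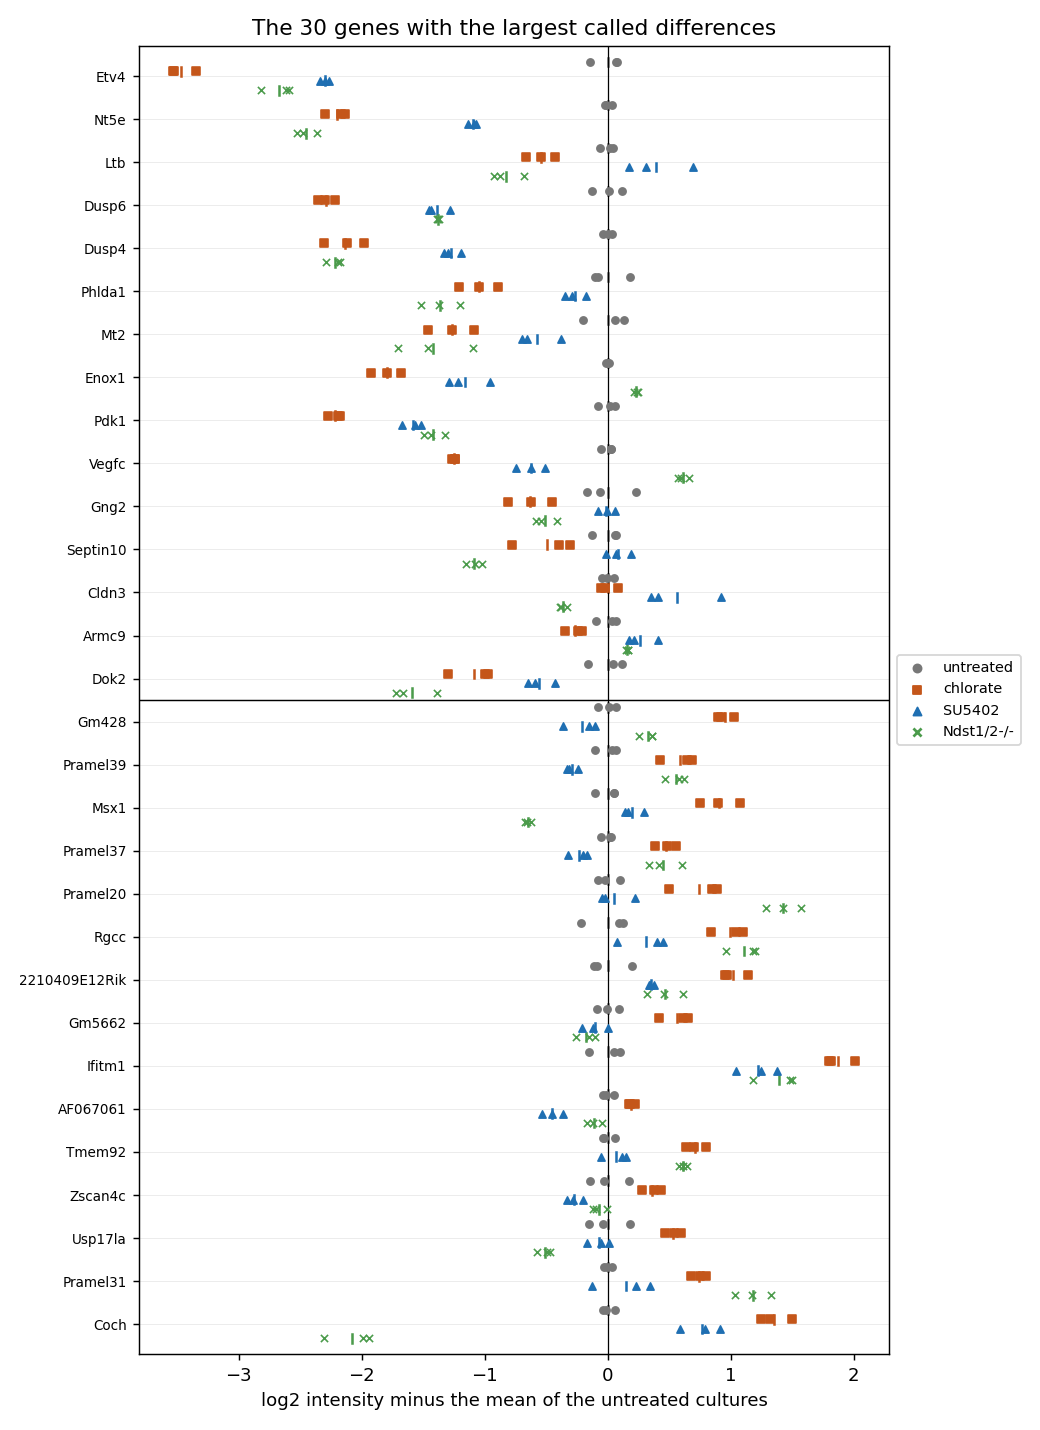
Level in each of the 12 cultures of the 15 genes with the largest increase (above the line) and the 15 with the largest decrease (below it) with SU5402 against chlorate, as log2 intensity minus the mean of the untreated cultures (horizontal axis). Points are cultures and bars are group means. Above the line chlorate points lie left of SU5402 points, and below it right of them, without overlap, which was a condition for choosing these genes.

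Ndst1/2-/- cells, a genetic block of heparan sulfate sulfation, share no culture with the direct comparison and were set beside it as a description. Both comparisons came from 1 fit with a shared estimate of spread per probe, so their calls are not independent. Of the probes called between treatments, 25 of the 139 higher and 35 of the 201 lower were not called in Ndst1/2-/- cells, against 4996 of 13377 tested. In these cells 62.7% of all tested probes were called against untreated wild-type cells, 30.4% higher and 32.2% lower. The sample titles name the CCE line for untreated wild-type cells and no line for Ndst1/2-/- cells. Differences of genotype and of cell line therefore cannot be told apart here. Of the 139 probes higher with SU5402 than with chlorate, 84 (60.4%) were lower in Ndst1/2-/- cells and 30 (21.6%) higher, which make up 1.95% of the probes lower there and 0.737% of those higher there. Of the 201 probes lower with SU5402, 96 (47.8%) were higher and 70 (34.8%) lower, or 2.36% and 1.62% of the probes called in those directions. The median Ndst1/2-/- difference was -0.39 over the first set and 0.13 over the second, against 0.00 over all tested probes. Among the genes higher with SU5402, Nt5e (-2.45), Dusp4 (-2.22), Phlda1 (-1.36), Mt2 (-1.42) and Dok2 (-1.59) were lower in Ndst1/2-/- cells, and Vegfc (0.61) and Enox1 (0.23) were higher. Among those lower with SU5402, Pramel20 (1.43), Rgcc (1.11) and Ifitm1 (1.39) were higher there, Coch (-2.08), Msx1 (-0.65) and Usp17la (-0.51) were lower, and Zscan4c (-0.07) was not called.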

How the data were processed

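Per the file headers, the authors deposited unnormalized mean intensity for every probe on each array and, beside it, a detection p-value. The submitters' processing notes name BeadStudio, without a version in the sources used here. A second deposited table holds intensity processed by the authors in an unstated way and served only as an alternative.

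Background was corrected over all 16 arrays with the normal-exponential model driven by the deposited detection p-values (offset 16), followed by quantile normalization and log2, a scale that understates the fold changes of dim genes. The arrays of culture 3 were then averaged. Probes with a mean detection p-value under 0.01 in at least 3 of the 12 cultures were tested in 1 linear model of the 4 groups (limma 3.58.1, R 4.3.3; lmFit and eBayes, 8 residual and 4.37 prior degrees of freedom). P-values were adjusted by Benjamini-Hochberg over all 13377 probes.

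Genes named are the 15 largest called differences each way whose cultures do not overlap, and members of 44 lists (735 genes, 512 tested, each by its brightest probe). Up to 5 called and 3 uncalled members of each list were taken. Not every uncalled member or list without a call is printed. Members and lists were chosen with earlier results of these data known. For a probe undetected on every array of a treatment a bound is given: the brighter mean against the higher of the lowest detected signal and the probe's own on each array. The labels call the cultures biological replicates. How separately they were grown is not stated. The script was tested on simulated data. Sequences are RefSeq's for GRCm38.p6, matched by symbol (7399 tested genes). The sources used here name no build for the arrays. Alternatives covered scaling, background, offset, filters, array sets, replicate block, variance model and each culture left out.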

Additional observations from a re-analysis of the deposited data

How the results depend on the processing

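The 30 genes with the largest differences and 34 further called list genes were refitted under each alternative, and none of them reversed its direction. All had been picked by their calls in these same arrays, so a kept direction was expected and is no separate support. Of the 30, 4 (Etv4, Nt5e, Dusp6, Gm428) kept their call in all alternatives and 23 in every fit without 1 culture. Of the 34, 0 and 14 did. The called probes, 139 higher and 201 lower (126 and 172 genes), became 39 and 80 (36 and 62 genes) when only the 6 compared cultures were fitted, 296 and 402 (265 and 344) with array set as a block over 16 arrays, 5 and 16 (4 and 11) in the first array set alone and 3 and 3 (3 and 1) in the second. With trend and robust variance 228 were higher (204 genes), and with median scaling 98 were lower (81 genes), where the median of all probes moved to 0.03. Against untreated cells the sets alone called 2260 and 2146 probes with chlorate and 1535 and 1509 with SU5402. The share of higher probes that were lower in Ndst1/2-/- cells was 100% in each set, over 5 and 3 probes, and that of lower probes that were higher there 100% in the second, over 3. Leaving out 1 culture gave 64 to 146 higher and 88 to 210 lower probes (61 to 131 and 72 to 177 genes). It gave 3102 to 3806 chlorate, 2458 to 3186 SU5402 and 7789 to 8441 Ndst1/2-/- calls against untreated cells, and shares of 58.9% to 73.1% and 44.8% to 53.6%. With the replicate number as a replicate block 139 and 185 probes were called. Same-numbered cultures correlated at 0.17, 0.056 and 0.016 in their deviations, SU5402 replicate 3 correlated best with chlorate replicate 2 (0.118), and the samples share only a number. Without background correction 205 and 301 were called, with an offset of 50 187 and 273, with no filter 112 and 165, and with the authors' processed values 141 and 186. The number of arrays limits precision, and the causes of these shifts were not tested.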

Other observations

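The genes below were chosen after their values were seen. Of the germline list 1 of 8 genes, Sycp1, was called between the treatments, and 4 further called genes with roles in meiosis or the germ line were picked from the results. Smc1b, a meiotic cohesin subunit, read 7.58, 7.58 and 7.62 untreated, 6.96, 6.74 and 6.71 with chlorate and 7.40, 7.22 and 7.32 with SU5402 (0.51 ± 0.07, limma adjusted p = 0.00370). Tex14, of germ cell bridges, differed by 0.49 ± 0.07, the PIWI protein gene Piwil2 by 0.43 ± 0.06, the synaptonemal complex gene Sycp1 by 0.42 ± 0.08 and the cohesin gene Stag3 by 0.38 ± 0.06 (limma, adjusted p = 0.00378, 0.00368, 0.0140 and 0.00605). In each of these genes the chlorate cultures lay below all untreated and SU5402 cultures, and the SU5402 cultures of Tex14 and Sycp1 lay about the untreated level (0.06 and -0.02). The call of Sycp1 was lost without SU5402 replicate 2 (adjusted p = 0.0571). The histone H3 genes H3c3 (0.50 ± 0.10), H3c4 (0.29 ± 0.06), H3c6 (0.28 ± 0.05) and H3f3b (0.23 ± 0.05) were higher as well, and the first 3 have near-identical copies that a probe may also read. All were picked from called probes, and the histone H3 genes tested were not counted, so they do not describe the family.

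Of the called genes for secreted factors, some were higher with chlorate and others with SU5402, such as Vegfc (0.62), Vgf (0.46) and Ccn1 (0.41). Igfbp2 and Igfbp3, which bind insulin-like growth factors, differed by -0.39 ± 0.06 and -0.35 ± 0.07, and the chemokine gene Cxcl12 by -0.46 ± 0.09 (limma, adjusted p = 0.00997, 0.0167 and 0.0210). Cxcl12 read 6.84, 6.85 and 6.79 untreated, 8.15, 7.98 and 7.92 with chlorate and 7.69, 7.52 and 7.46 with SU5402, so both treatments raised it. Cxcl12 and Igfbp2 were each called by 1 of 2 tested probes. The Wnt receptors Fzd10 (-0.31 ± 0.06 by 1 of 3 probes) and Fzd2 (-0.32 ± 0.08) and the Wnt export protein gene Wls (-0.34 ± 0.07) were lower with SU5402, while 0 of 7 listed Wnt targets were called. These receptor and export genes were also picked from called probes, without a count of the related genes tested. Gap43, a neuronal growth cone protein, differed by -0.59 ± 0.09 (limma, adjusted p = 0.00466). Of the called genes 9 pairs were next to each other in the RefSeq gene order, and 7 of these pairs had the same direction, among them Mt2 with Mt1, Gbp2b with Gbp2, Kndc1 with Utf1 and Krt17 with Krt42. Pfkl with Aire and Plod3 with Vgf had opposite directions. Some pairs, such as Gbp2b with Gbp2, are members of 1 family. The number of pairs expected among as many called genes was not computed, so these counts are description only.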
